A study of Strongylocentrotus purpuratus with 8 samples.

Results

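DNA methylation at CpG sites was compared between embryos of the purple sea urchin, Strongylocentrotus purpuratus, at 72 hours post fertilisation (hpf) and at 24 hpf. Libraries were assigned by their titles, and 4 of the 8 libraries of the series enter the comparison, 2 replicates at 72 hpf and 2 replicates at 24 hpf, all from genomic DNA of untreated embryos. Embryos at 48 hpf, with 2 replicates, were kept out of the main filter and test along the genome as the stage in between. They entered only where their level is named as a reference and in alternative fits. Adult tube feet, the suckered appendages of the adult, with 2 replicates, entered the tests only to add to the estimate of the spread between replicates. The assay was MethylC-seq, whole-genome bisulfite sequencing in which unmethylated cytosines are read as thymines and methylated cytosines stay cytosines. A methylation level is the percentage of reads at a site or window that were methylated, and differences between levels are given in percentage points. The series calls the replicates biological but does not say whether they came from separate spawnings or cultures, so p-values measure the spread between these libraries.

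The sea urchin genome, like those of many invertebrates, is methylated in a mosaic. Heavily methylated stretches, which mostly lie over the bodies of transcribed genes, alternate with stretches that carry almost no methylation. DNA methyltransferases place the mark at CpG sites and copy it onto the new strand after replication, and it can be lost when copying lags behind cell division or when TET enzymes oxidise it. In this species the embryo is a hatched blastula at the first of the sampled times, a gastrula at the next and a pluteus larva at the last. DNA was taken from all cells together, so loss of methylation in some cells and a change in the proportions of cell types cannot be told apart.

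The 72 hpf libraries held 95081823 reads at CpG sites in replicate 1 and 100288115 in replicate 2, and the 24 hpf libraries held 90132169 in replicate 1 and 75377025 in replicate 2. Of these reads, 24.5% and 26% were methylated in the 72 hpf replicates, against 24.2% in 24 hpf replicate 1 and 42.2% in 24 hpf replicate 2. The last library stood apart from the other embryo libraries. It listed 8652151 CpG sites, while the other libraries at 72 and 24 hpf listed 11688030, 11840651 and 11705510. Unmethylated lambda phage DNA, added to measure incomplete conversion, gave 0.296% and 0.235% methylated reads in the 72 hpf replicates and 0.112% and 0.232% in the 24 hpf replicates. The excess of methylated reads in 24 hpf replicate 2 came with uneven coverage. Among windows of 200 bp at 30% or more in both 24 hpf libraries and with 16 or more CpG sites, the median number of reads was 134 and 110 in the 72 hpf replicates, 120 in 24 hpf replicate 1 and 426 in 24 hpf replicate 2. Among such windows with 3 or 4 CpG sites the medians were 38, 44, 36 and 24 in the same order. Each 24 hpf replicate is therefore given separately, or each pair of a 72 and a 24 hpf library.

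Windows of 200 bp were tested where they held 3 or more CpG sites and every library of the test, 6 in all, had 10 or more reads, which left 605756 of 2210328 windows with enough CpG sites. When these windows were given equal weight, the methylation level was 31.26% and 31.29% in the 72 hpf replicates, against 31.07% in 24 hpf replicate 1 and 33.04% in 24 hpf replicate 2. The 72 hpf replicates lay close together and between the 24 hpf replicates. The 72 hpf mean was 31.28% ± 0.0243 and the 24 hpf mean 32.05% ± 1.391 (SD, n = 2 each), a difference of -0.778 points (two-sided exact permutation test over 6 arrangements, p = 1). With 2 libraries against 2, the smallest p this test can give is 0.333. Without 24 hpf replicate 2 the difference turned to 0.2052 points. Methylation over all windows was thus not distinguishable between the stages.

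No 200 bp window passed the test of the 72 minus 24 hpf difference. The quasi-binomial test moderated by limma called 0 windows lower and 0 windows higher at 72 hpf, which is 0.0% of the 605756 tested in each direction. A call needed an adjusted p below 0.05 and a difference of at least 20 points, and the smallest adjusted p in this test was 0.1106. At an unadjusted p below 0.05, 15935 windows passed, of which 6266 were lower by at least 20 points and 1361 higher by at least 20 points. Limma on log2 ratios of methylated to unmethylated reads also called 0 windows. The count rested on the 24 hpf replicates. Without 24 hpf replicate 1 the quasi-binomial test called 6995 windows lower and 164 higher, and without 24 hpf replicate 2 it called 101 lower and 31 higher, in fits that assume that the remaining 24 hpf library varies like the other groups.

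The spread between the 24 hpf replicates was as wide as the difference between the stages. Over the windows tested, the 72 minus 24 hpf difference had an SD of 7.4 points between the libraries numbered 1 and 10.32 points between those numbered 2. The difference of 24 hpf replicate 2 from replicate 1 had an SD of 10.62 points, while replicates differed with an SD of 7.111 points at 48 hpf and 7.243 points at 72 hpf. In the pair numbered 1, 1.542% of windows were lower at 72 hpf by at least 20 points and 1.478% were higher. In the pair numbered 2, 4.909% were lower and 1.406% were higher. A comparable excess, 5.274% of windows, was found when 24 hpf replicate 2 was set against 24 hpf replicate 1, both of the same stage.

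**Figure D1:**
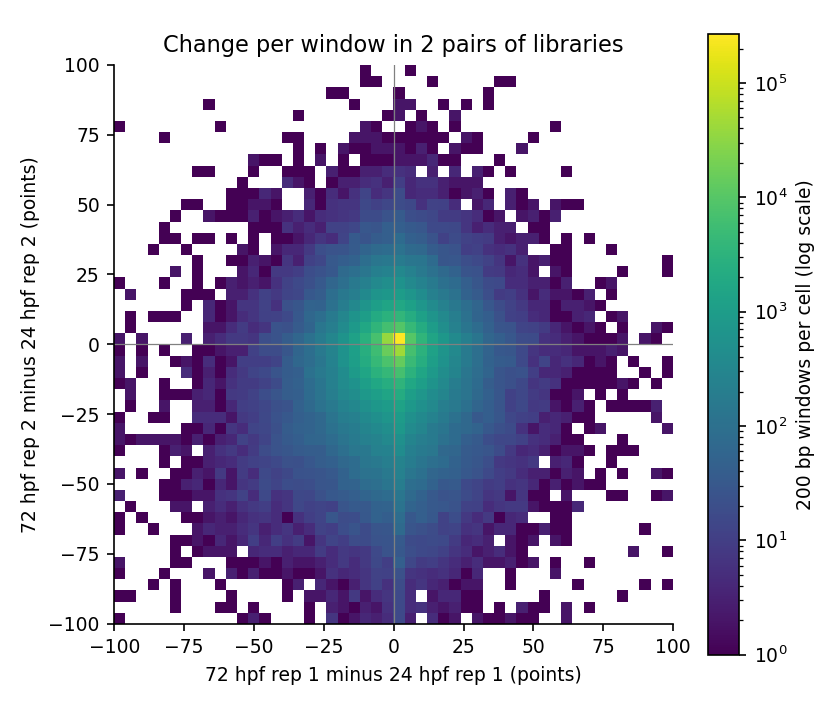
Difference in methylation level (percentage points) of each 200 bp window between 72 and 24 hpf in the libraries numbered 1 (x axis) and numbered 2 (y axis), with the number of windows per cell of the grid on a log colour scale. Most windows lie at 0 in both pairs, the vertical arm below 0 holds windows lower only in the pair with 24 hpf replicate 2, and the lower left area is fuller than the upper right one.

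Windows were next chosen in the libraries of the same number and read in the other pair, which shares no library with the first. The numbers do not tie libraries to a common culture, so the pairs are only a way of keeping libraries apart. Of the 758 windows that were at least 50 points lower at 72 hpf in the pair numbered 1, 57.0% were also at least 20 points lower in the pair numbered 2, with a median difference there of -26.94 points. Among all 74850 windows whose 48 hpf level lay between 20% and 80%, 24.4% reached that size. Windows chosen for a higher level at 72 hpf in the pair numbered 1 were more often lower than higher in the pair numbered 2. Of the 468 windows at least 50 points higher in the pair numbered 1, 10.0% were at least 20 points higher in the pair numbered 2, against 5.68% of windows at 20% to 80% at 48 hpf. There 36.8% were at least 20 points lower, against 24.4% of windows at 20% to 80% at 48 hpf, and the median difference was -9.393 points.

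In the opposite direction the transfer was smaller. Of the 4145 windows at least 50 points lower in the pair numbered 2, 17.6% were at least 20 points lower in the pair numbered 1, against 8.01% of windows at 20% to 80% at 48 hpf, and their median difference was 0. The median level of these windows was 21.43% in 72 hpf replicate 1 and 22.49% in 24 hpf replicate 1. Most windows chosen through 24 hpf replicate 2 were therefore already poorly methylated in 24 hpf replicate 1. Of the 401 windows at least 50 points higher in the pair numbered 2, 13.7% were at least 20 points higher in the other pair, against 7.34% of windows at 20% to 80% at 48 hpf, and 15.7% at least 20 points lower. With the numbers crossed, 64.3% of the 608 windows at least 50 points lower in 72 hpf replicate 2 than in 24 hpf replicate 1 were also at least 20 points lower in the remaining pair, against 27.1% of windows at 20% to 80% at 48 hpf. Of the 5112 windows at least 50 points lower in 72 hpf replicate 1 than in 24 hpf replicate 2, 14.6% were at least 20 points lower and 16.8% at least 20 points higher in the remaining pair, and the median difference was 1.023 points. With either pairing, windows chosen as lower through 24 hpf replicate 1 were lower again more often than those chosen through 24 hpf replicate 2. Windows at 20% to 80% at 48 hpf were also lower more often there, at 24.4% and 27.1% against 8.01% and 7.15%. Windows chosen as higher went the other way, higher again in 10.0% and 7.82% through replicate 1 and 13.7% and 16.7% through replicate 2. Among windows at 20% to 80% at 48 hpf these shares were 5.68%, 5.25%, 7.34% and 9.05%.

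Single CpG sites passed the test where windows did not, and all that passed were lower at 72 hpf. Of 557837 sites with at least 10 reads in each of the 6 libraries, the quasi-binomial test moderated by limma called 368 sites lower, or 0.066%, and 0 sites higher, or 0.0%. The smallest adjusted p in this test was 2.2e-09. At an unadjusted p below 0.05 stood 18584 sites, of which 9249 were lower and 738 higher by at least 20 points. For sites, the moderation gave all sites of like coverage nearly the same dispersion, so disagreement between the replicates of a single site counted only on average. The call was therefore also read against each 24 hpf library alone. The pooled level at 72 hpf lay at least 20 points below each 24 hpf library at 259 sites, which is 0.0464% of the sites tested. This second criterion was added after the data had been seen, and the descriptions of sites below use these 259.

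The count of called sites depended on every library and on the read minimum. It was 38 without 24 hpf replicate 2, 33 without 72 hpf replicate 1, 46 without 72 hpf replicate 2 and 216 without either adult library, and all of these were in the same direction. Without 24 hpf replicate 1 it was 10935, of which 171 were higher at 72 hpf. Of the 259 sites, 246 were also called without 24 hpf replicate 1 and 38 without 24 hpf replicate 2. Where the dispersion of a site was not allowed below its own value, the test called 170 sites, and all 170 met the second criterion. With at least 20 reads in every library, 0 of 50707 sites were called (quasi-binomial test moderated by limma, smallest adjusted p of 1), and 1847 sites had an unadjusted p below 0.05. Of the 368 called sites 54 had that many reads, 7 of the 259 among them, and none was called. With at least 15 reads, 14 sites were called, while 112 of the 368 had that many reads. The median dispersion was 2.104 over sites with at least 20 reads and 1.385 over all sites fitted.

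By their medians, the 259 sites were highly methylated at 24 hpf and fell to low levels by 72 hpf. Single sites were as low as 20.0% in 24 hpf replicate 1 and 51.6% in 24 hpf replicate 2. Their median level was 90.0% in 24 hpf replicate 1 and 91.7% in 24 hpf replicate 2, 41.2% and 48.6% in the 48 hpf replicates, and 27.3% in each of the 72 hpf replicates. The replicates of a stage differed by far less than the stages in these medians, and at all 259 sites both 72 hpf libraries lay below both 24 hpf libraries, which the choice of sites favours. Among 202564 fitted sites at 50% or more in both 24 hpf libraries, the medians were 92.9% and 93.2% at 24 hpf, then 90.5% and 92.0% at 48 hpf and 93.5% and 92.9% by 72 hpf. The median difference of the 259 sites was -58.45 points, with a range of -88.89 to -33.33 points. Measured against each 24 hpf library alone, the median was -55.41 points for replicate 1 and -59.6 points for replicate 2. The median numbers of reads at a site were 19 and 18 in the 72 hpf replicates and 16 and 28 in the 24 hpf replicates, so a single site is measured coarsely.

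**Figure D2:**
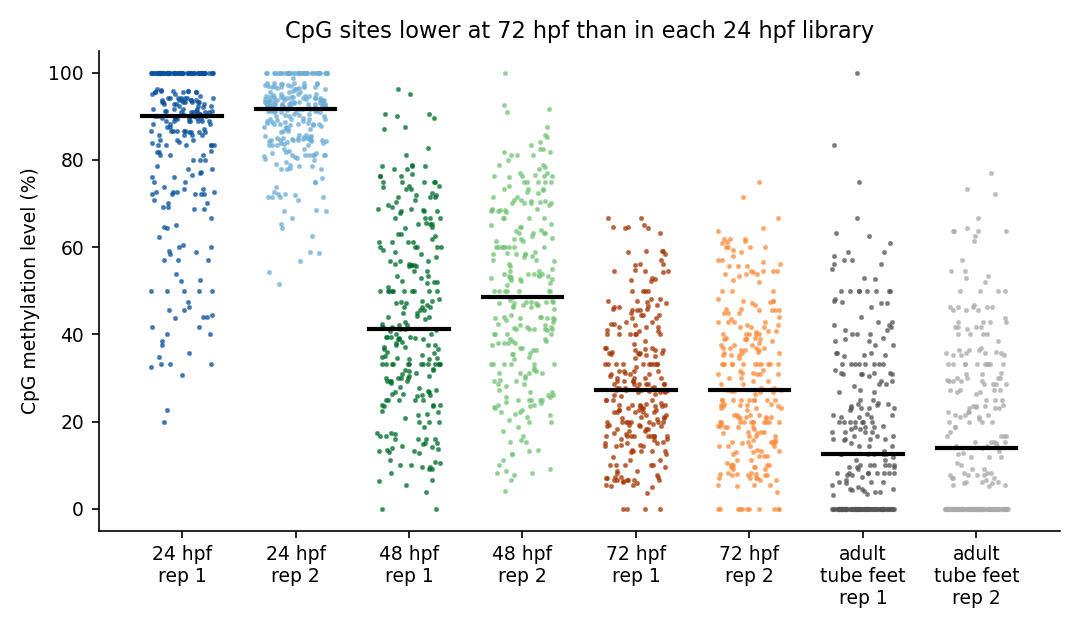
CpG methylation level (%) of the 259 sites lower at 72 hpf than in each 24 hpf library, with 1 point per site in each library in order of stage and a black bar at the median. The medians are 90.0% and 91.7% at 24 hpf, then 41.2% and 48.6% at 48 hpf and 27.3% and 27.3% by 72 hpf, with 12.5% and 13.9% for adult tube feet.

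The 48 hpf libraries, which took no part in choosing the sites, lay mostly between the other stages. They had at least 10 reads at 251 of the 259 sites. Both 48 hpf replicates were below both 24 hpf replicates and above both 72 hpf replicates at 139 sites, or 55.4%, and the mean of the 48 hpf replicates lay between the stage means at 231 sites. It was at or below the 72 hpf mean at 19 sites and at or above the 24 hpf mean at 1. The change from 24 to 48 hpf made up a median of 72.9% of the change from 24 to 72 hpf, with quartiles of 55.7% and 83.9%. Both 48 hpf libraries were at least 20 points below both 24 hpf libraries at 63.3% of the 251 sites. The share was 0.312% among 197143 tested sites at 50% or more in both 24 hpf libraries, with the same reads at 48 hpf. The 24 hpf libraries are common to both differences and their level helped to choose the sites. Part of the 63.3% is therefore fixed by the choice, and no test was made of it.

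In adult tube feet the same sites had median levels of 12.5% and 13.9%. Both adult libraries were below both 72 hpf libraries at 148 of the 259 sites and above both at 39. Both were at 10% or less at 105 sites and at 50% or more at 10. At 2 sites both adult libraries had reached the lower of the 24 hpf levels. The low level at 72 hpf was thus shared by adult tissue at most of the sites, although the adult libraries took part in the fit and so in the choice of sites through its dispersion.

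Sites no more than 1000 bp apart were joined, which gave 127 regions on 114 scaffolds. Of these, 72 regions held a single site, 55 held 2 or more and 11 held 5 or more, up to 9 sites. In regions with 2 or more sites the median distance from the first to the last was 35 bp, and the longest was 1974 bp. Coordinates are those of the build of the files, Spur3.1, and are 1-based. Genes at these positions were not analysed here.

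On scaffold 265, 9 sites were called within 76 bp, between positions 151666 and 151741 (smallest adjusted p of 1.05e-06, quasi-binomial test moderated by limma). Their mean level was 86.7% and 88.8% in the 24 hpf replicates, then 20.1% and 35.4% at 48 hpf and 27.6% and 11.1% by 72 hpf. At this place 48 hpf replicate 1 already stood between the 72 hpf replicates, and 48 hpf replicate 2 stood above both. In adult tube feet the mean was 42.9% and 35.3%, above both 72 hpf replicates. At the site at -97 bp from the first called site, where 24 hpf replicate 2 had 1 read, the level was 85.7% and 80% in the 72 hpf replicates and 88.0% in 24 hpf replicate 1.

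On scaffold 219, 9 sites were called between positions 191203 and 191526 (smallest adjusted p of 3.25e-06, quasi-binomial test moderated by limma). Their mean level was 78.8% and 79.6% at 24 hpf, then 30.4% and 31.2% at 48 hpf and 22.4% and 22.4% by 72 hpf, and 0% in both adult libraries. The replicates of each stage lay within 1 point of each other there. The called site 234 bp from the first was the least methylated of the 9 in both 24 hpf replicates, at 6.45% and 5.56% in the 72 hpf replicates against 44.0% and 51.6% in the 24 hpf replicates. Beyond the called sites, the site 501 bp from the first was at 72.2% and 66.7% in the 72 hpf replicates and 90.9% in 24 hpf replicate 1, and 24 hpf replicate 2 had 4 reads there.

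On scaffold 946, 9 sites were called between positions 300969 and 302944 in 3 separate clusters (smallest adjusted p of 3.95e-05, quasi-binomial test moderated by limma). Their mean level was 94.3% and 92.9% at 24 hpf, then 45.4% and 57.0% at 48 hpf and 32.2% and 41.8% by 72 hpf, with 20.1% and 22.6% for adult tube feet. Between the clusters, the site 1008 bp from the first stood at 100% in both 72 hpf replicates, against 91.7% and 80% in the 24 hpf replicates. Lower methylation was therefore interrupted within the region. Neighbouring sites inside a cluster also differed. The site 823 bp from the first was at 76.9% and 80% in the 72 hpf replicates and at 83.3% and 95.0% in the 24 hpf replicates, while the called site 841 bp from the first was at 35.7% and 23.5% in the 72 hpf replicates and at 100% and 90.0% in the 24 hpf replicates.

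**Figure D3:**
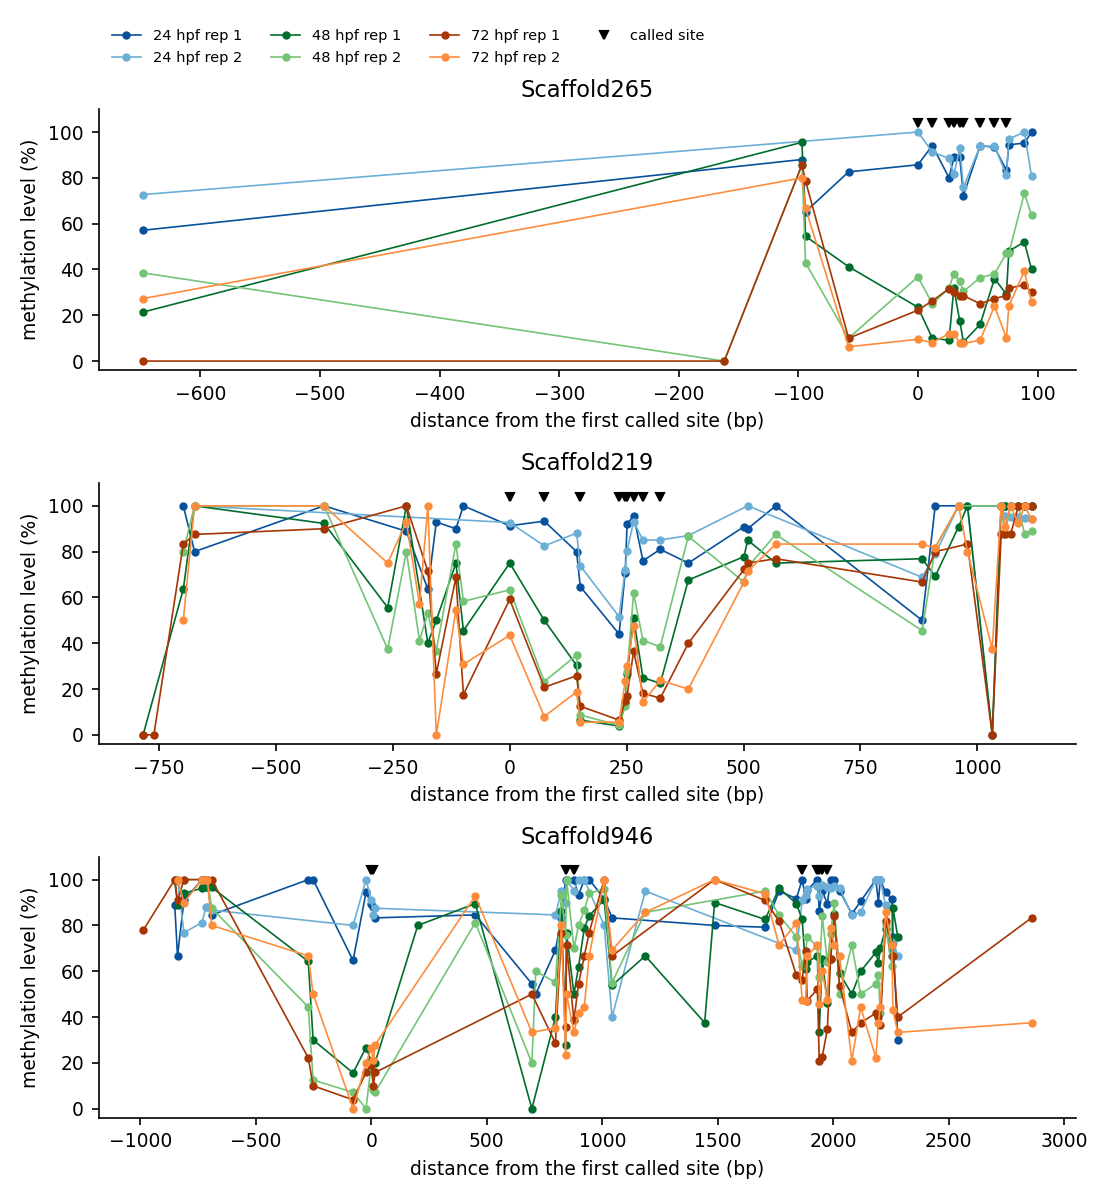
CpG methylation level (%) site by site in the 3 regions with 9 called sites, against distance (bp) from the first called site, for each 24, 48 and 72 hpf library at sites with at least 5 reads. Black triangles mark called sites, where the 24 hpf libraries lie above the 48 and 72 hpf libraries. Away from the called sites the levels of the stages draw together in places. On scaffold 265 they are still well apart at the last sites plotted downstream.

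Regions on scaffolds 1358, 43 and 1224 showed the same order of stages. On scaffold 1358, between positions 64077 and 64545, 8 sites had mean levels of 78.7% and 82.9% at 24 hpf, then 29.0% and 34.7% at 48 hpf and 21.1% and 14.4% by 72 hpf, with 11.8% and 25.5% for adult tube feet. On scaffold 43, between positions 546154 and 546348, 8 sites had mean levels of 83.6% and 86.5% at 24 hpf, then 40.8% and 46.9% at 48 hpf and 21.4% and 8.33% by 72 hpf, with 1.11% and 0% for adult tube feet. On scaffold 1224, between positions 380155 and 380286, 6 sites had mean levels of 94.3% and 96.1% at 24 hpf, then 52.5% and 61.5% at 48 hpf and 31.5% and 24.1% by 72 hpf, with 0% and 1.19% for adult tube feet. In these regions the 48 hpf replicates stood between the other stages without overlap. A large cluster among the other called sites looked different. On scaffold 550, 11 called sites that began at position 226180 and did not meet the second criterion averaged 8.31% in 24 hpf replicate 1 and 72.1% in 24 hpf replicate 2, 11.6% and 23.6% at 48 hpf, and 7.99% and 13.9% at 72 hpf. There only 24 hpf replicate 2 was high.

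Lower methylation was focal. The leading site of each region, the one of smallest p, averaged 82.6% and 89.7% in the 24 hpf replicates, then 44.2% and 48.4% at 48 hpf and 28.4% and 28.9% by 72 hpf, and it was chosen for its difference. The sites around it were taken by distance. They include the other called sites of a region, which were chosen for their difference, so part of the nearest values is fixed by the choice. At 51 to 100 bp the 72 minus 24 hpf difference was -27.9 points against 24 hpf replicate 1 and -34.6 points against replicate 2. At 151 to 200 bp it was -18.2 and -21.7 points, at 301 to 400 bp -17.4 and -25.6 points, at 501 to 750 bp -5.34 and -10.2 points, at 751 to 1000 bp -8.19 and -8.43 points, and at 2001 to 3000 bp -4.49 and -4.48 points. Against either 24 hpf library the difference was smaller far from the leading site than near it, though not at every step. Sites within the length of a fragment share reads with the leading site, so the nearest values are not independent of it.

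**Figure D4:**
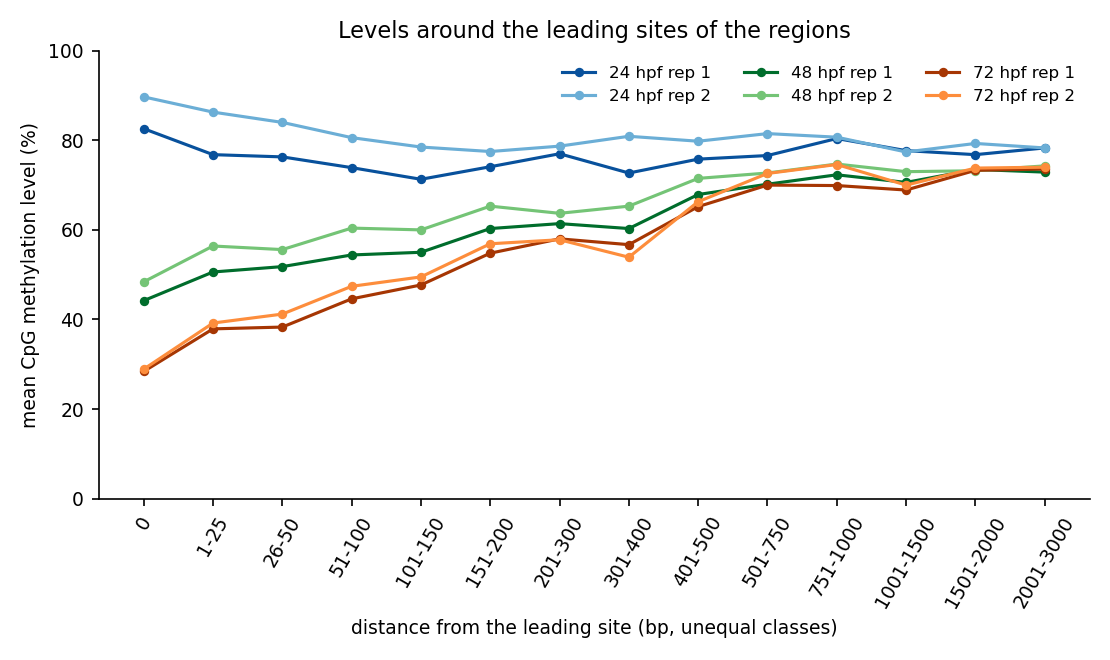
Mean CpG methylation level (%) by distance (bp, in classes of unequal width) from the leading sites of the 127 regions, for each 24, 48 and 72 hpf library, at sites with at least 5 reads in all of them. At the leading site the 24 hpf libraries lie at 82.6% and 89.7% and the 72 hpf libraries at 28.4% and 28.9%, the 48 hpf libraries run between them, and at 2001 to 3000 bp all lie between 72.9% and 78.3%.

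The surroundings of the regions were mostly methylated. At 48 hpf, the level 500 to 1500 bp away was 60% or more on both sides of 63 of the 109 leading sites with enough reads there, or 57.8%, against 83.0% of sites at 50% or more in both 24 hpf libraries. Both sides were at 20% or less for 5 leading sites, or 4.59%, against 0.525%. One side was at 60% or more and the other at 20% or less, as at the border of a methylated stretch, for 4.59% of leading sites against 4.23%. The median level of the surroundings was 75.7% for leading sites and 83.9% for the comparison sites. Leading sites had a median of 7 CpG sites within 100 bp, and the comparison sites had 8. The leading sites therefore lay mostly within methylated stretches. The surroundings of 33.0% of them fell in none of these classes, against 12.2% of the comparison sites. These shares are descriptions without a test.

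Windows were described in a second way that does not rest on a p-value. Every 72 hpf library was at least 30 points below every 24 hpf library in 786 of the windows tested, or 0.13%, and at least 30 points above in 63 windows, or 0.0104%. At 20 points the counts were 1936 lower, or 0.32%, and 363 higher, or 0.0599%, and at 50 points 133 lower, or 0.022%, and 2 higher, or 0.00033%. Of the windows at 30 points, those lower outnumbered those higher, but part of that excess is carried by 24 hpf replicate 2. Against 24 hpf replicate 1 alone, both 72 hpf libraries were at least 30 points lower in 1328 windows, or 0.219%, and higher in 1118, or 0.185%. Against 24 hpf replicate 2 alone they were lower in 10649, or 1.76%, and higher in 1191, or 0.197%. At 50 points the split was 277 lower, or 0.0457%, and 148 higher, or 0.0244%, against 24 hpf replicate 1, and 2672 lower, or 0.441%, and 127 higher, or 0.021%, against 24 hpf replicate 2. These windows were defined after the values had been seen.

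The 786 lower windows had median levels of 80.4% and 83.3% in the 24 hpf replicates, then 45.7% and 50.0% at 48 hpf and 28.3% and 28.7% by 72 hpf, with 20.1% and 21.8% for adult tube feet. The 48 hpf libraries had at least 10 reads in 756 of them, and both lay between the other stages in 430, or 56.9%. The change from 24 to 48 hpf made up a median of 66.7% of the whole, with quartiles of 45.5% and 80.6%. In 49 windows the 48 hpf mean was at or below the 72 hpf mean, and in 20 it was at or above the 24 hpf mean. Both adult libraries were below both 72 hpf libraries in 322 of the 756 windows and above both in 191. Choosing windows for their extremes itself favours a middle stage between them, so these positions describe the windows and were not tested.

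Most of the lower windows had no other lower window near them. They formed 690 regions on 523 scaffolds when joined within 1000 bp, and 614 regions, or 89.0%, were single windows. Only 27.4% of the windows with enough CpG sites were tested, and 303 of the regions had a measured window at 200 bp on a given side, so unmeasured neighbours add to the number of single windows. The longest region spanned 2400 bp and held no more than 5 of the windows. The mean 72 minus 24 hpf difference in the leading windows was -49.25 points in the pair numbered 1 and -52.38 points in the pair numbered 2. At 200 bp downstream it was -20.51 and -21.57 points, at 400 bp -7.662 and -8.791 points, and at 3000 bp -1.313 and -3.879 points. When 715 regions were chosen for windows at least 50 points lower in the pair numbered 1, the pair numbered 2 gave -25.22 points in those windows. Downstream it gave -18.93 points at 200 bp, -8.592 points at 400 bp and still -7.561 points at 3000 bp, with -2.749 points at 3000 bp upstream. When 3646 regions were chosen in the pair numbered 2, the pair numbered 1 gave -3.232 points in those windows and -1.07 points at 200 bp. The pair that was not used to choose thus showed a difference in and 200 bp from windows chosen through 24 hpf replicate 1. From 400 bp on, that difference was close to the value at 3000 bp downstream. Little difference was seen around windows chosen through 24 hpf replicate 2. Of windows that were at 30% or more in both 24 hpf libraries, those with 3 or 4 CpG sites were among the lower windows in 0.342% of cases and those with 16 or more in 1.32%. The class with 16 or more is the one in which 24 hpf replicate 2 had the deepest coverage, and the part of coverage in this share was not tested.

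The 63 higher windows had median levels of 25% and 21.1% at 24 hpf, then 50.0% and 47.6% at 48 hpf and 69.2% and 70.4% by 72 hpf, with 53.3% and 50.5% for adult tube feet. Both 48 hpf libraries lay between the other stages in 17 of the 54 windows they covered, or 31.5%. Both adult libraries went beyond the 72 hpf libraries in 7 of the 54 windows and lay below both in 36. The mean difference in the leading windows was 43.82 points in the pair numbered 1 and 46.76 points in the pair numbered 2. At 200 bp downstream, over 21 windows, it was 10.38 and -2.202 points, so the pairs differed in sign there. The higher windows held medians of 21 and 27 reads in the 72 hpf replicates and 25 and 20 in the 24 hpf replicates, fewer than the 43 and 40 at 72 hpf and 39 and 41.5 at 24 hpf of the lower windows.

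The windows with the smallest p values give the levels of single places, although none passed the adjusted test. The lower window with the smallest p lay on scaffold 832 at positions 116601 to 116800 and held 7 CpG sites. Its level was 94.5% and 92.8% in the 24 hpf replicates, then 35.1% and 42.1% at 48 hpf and 19.6% and 21.2% by 72 hpf, with 2.63% and 3.7% for adult tube feet, with 73 to 151 reads in each embryo library. The stages did not overlap, and the replicates of each lay within 10 points. Its 72 hpf mean was 20.41% ± 1.181 and its 24 hpf mean 93.63% ± 1.252 (SD, n = 2 each), and the difference of -73.05 points between pooled reads had an adjusted p of 0.111 (quasi-binomial test moderated by limma). The adjusted p was 2.5e-05 without 24 hpf replicate 1 and 0.00445 without 24 hpf replicate 2, fits in which the spread between the 24 hpf replicates no longer counts.

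The window on scaffold 104 at positions 160201 to 160400 held 12 CpG sites and had levels of 82.7% and 92.4% at 24 hpf, then 29.4% and 50.9% at 48 hpf and 19.4% and 21.9% by 72 hpf, with 1.23% and 4.07% for adult tube feet. The window on scaffold 2032 at positions 103201 to 103400 held 11 CpG sites and had levels of 85.9% and 88.1% at 24 hpf, then 37.2% and 20.0% at 48 hpf and 22.6% and 23.4% by 72 hpf, with 6.67% and 0% for adult tube feet. For both, the quasi-binomial test moderated by limma gave an adjusted p of 0.111. The neighbouring windows were less changed. The window 200 bp upstream of the scaffold 104 window was also lower at 72 hpf. It was at 57.1% and 55.3% in the 72 hpf replicates, against 80% and 83.3% in the 24 hpf replicates. The window 200 bp downstream was at 95.2% and 100% at 72 hpf and at 100% and 92.9% at 24 hpf. That downstream window had only 7 and 14 reads in the 24 hpf replicates. The one 200 bp downstream of the scaffold 2032 window was at 48.6% and 52.6% in the 72 hpf replicates and at 77.8% and 87.4% in the 24 hpf replicates.

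The higher window with the smallest p lay on scaffold 1067 at positions 104601 to 104800 and held 15 CpG sites. Its level was 6.17% and 0% at 24 hpf, then 31.0% and 42.1% at 48 hpf and 48.5% and 40% by 72 hpf, with 78.6% and 94.1% for adult tube feet (adjusted p of 0.447, quasi-binomial test moderated by limma). It bordered a methylated window, which 200 bp downstream was at 63.5% and 57.5% in the 72 hpf replicates and 65.2% and 47.6% in the 24 hpf replicates. At 200 bp upstream all of these libraries were at 0%, but with few reads in some. There were 2 and 27 reads in the 72 hpf replicates and 26 and 3 in the 24 hpf replicates. The window on scaffold 2334 at positions 4001 to 4200 was at 5.22% and 10.0% at 24 hpf, then 39.4% and 41.8% at 48 hpf and 59.0% and 41.8% by 72 hpf, and 0% in both adult libraries (adjusted p of 0.493, quasi-binomial test moderated by limma). The window on scaffold 22891 at positions 1001 to 1200 was at 0% and 1.24% at 24 hpf, then 26% and 11.5% at 48 hpf and 24.7% and 14.7% by 72 hpf, with 11.9% and 17.7% for adult tube feet. In adult tube feet the 3 windows thus stood at high, absent and low methylation.

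Neighbouring sites changed together within a pair of libraries and hardly at all between pairs. This was read at 112584 sites at 20% to 80% at 48 hpf. Each 24 and 72 hpf library had at least 10 reads there, and the 48 hpf libraries together at least 10. At sites 11 to 25 bp apart, Pearson's r of the 72 minus 24 hpf difference was 0.767 in the pair numbered 1 and 0.845 in the pair numbered 2. At 101 to 200 bp it was 0.234 and 0.348, and at 201 to 400 bp 0.0335 and 0.217. Such sites share reads within a pair. When 1 site was read in each pair, which removes shared reads, r was 0.0427 at 11 to 25 bp and 0.0605 at the same site, and -0.0245 and -0.0294 with the numbers crossed. These are correlations across sites, which are not independent replicates, and they were not tested. At intermediately methylated sites the difference between a 72 and a 24 hpf library was therefore hardly correlated with that in the other pair. Sampling of few reads also lowers this r, by an amount that was not measured.

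**Figure D5:**
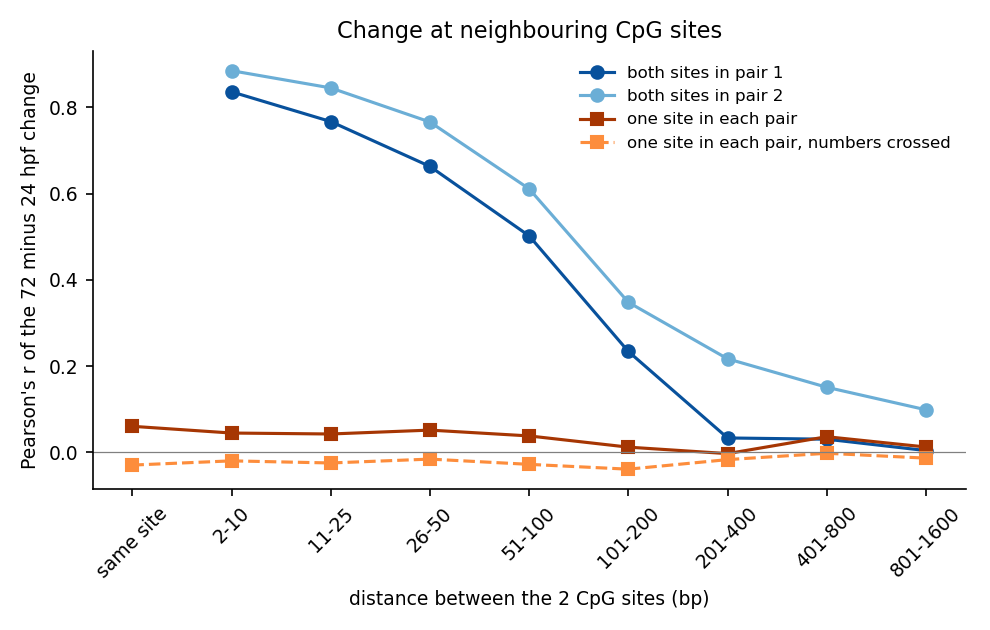
Pearson's r of the 72 minus 24 hpf difference between CpG sites by their distance (bp), for 112584 sites at 20% to 80% at 48 hpf, with both sites read in the same pair of libraries (circles) or 1 site in each pair (squares). Within a pair r declines from 0.836 and 0.885 at 2 to 10 bp, and between pairs it stays between -0.0389 and 0.0605 at all distances.

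The sites of largest loss were an exception. Of 539 sites at least 50 points lower at 72 hpf in the pair numbered 1, 80.9% were at least 20 points lower in the pair numbered 2, with a median difference there of -45.5 points. Among all sites at 20% to 80% at 48 hpf the share was 31.6% and the median -11.0 points. Neighbours of the 539 sites, read in the pair numbered 2 only, were at least 20 points lower in 69.3% of cases at 26 to 50 bp, 51.4% at 101 to 200 bp and 22.9% at 801 to 1600 bp. Of the 108 sites at least 50 points higher in the pair numbered 1, 3.7% were at least 20 points higher in the pair numbered 2. Another 20.4% were at least 20 points lower there. Among all sites at 20% to 80% at 48 hpf these shares were 3.53% and 31.6%. A large loss in the pair numbered 1 was thus mostly met by a loss in the pair numbered 2 at the same site and near neighbours. A large gain was met by a gain about as often as among all sites at 20% to 80% at 48 hpf.

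Choosing through 24 hpf replicate 2 gave a weaker return. Of 4708 sites at least 50 points lower in the pair numbered 2, 14.5% were at least 20 points lower in the pair numbered 1, against 7.9% of sites at 20% to 80% at 48 hpf, and of 104 sites at least 50 points higher, 6.73% were at least 20 points higher, against 7.09%. In all, every 72 hpf library was at least 50 points below every 24 hpf library at 193 of 812236 sites, or 0.0238%, and above at 0 sites, or 0.0%. These 193 sites had median levels of 90.0% and 89.3% at 24 hpf, then 36.0% and 42.9% at 48 hpf and 23.1% and 20.8% by 72 hpf, with 6.25% and 2.78% for adult tube feet. Of the 168 that had another measured site within 50 bp, the nearest one was also at least 20 points lower in 161, or 95.8%, and at least 20 points higher in 0. The change at these sites was thus shared by the adjoining CpG sites, with which they have reads in common.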

How the data were processed

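CpG calls came as 1 file for each library. These calls were made, per the file headers, with MethylDackel on deduplicated reads, merged over both strands of a CpG, on the build Spur3.1 with lambda phage added. Trimmomatic and Picard are also named in the submitters' processing notes. The sources used here give neither an aligner nor tool versions. A row of the deposited files holds the methylation level as a percent and 2 read counts, methylated and unmethylated, which the authors did not normalize. The deposited counts were used, and the percent column differed from them in 0 rows. Lambda rows were left out of all tests.

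Reads were summed in 200 bp windows with at least 3 CpG sites and 10 reads per library, or taken per CpG site with at least 10 reads. A quasi-binomial model with 1 mean per group was fitted over the 24 hpf, 72 hpf and adult libraries. Its Pearson dispersion was moderated with squeezeVar of limma 3.58.1 (R 4.3.3), with a coverage trend and a lower bound of 1. Windows or sites whose mean level at 24 and 72 hpf was under 2.5% or over 97.5% got a p of 1. Of the windows, 265731 were fitted. Adjustment followed Benjamini and Hochberg over everything tested. Reads carry no molecular identifiers here and a read is counted at each CpG site it covers, so the counts overstate the number of molecules. The median reads per window were 68 and 71 in the 72 hpf replicates and 64 and 36 in the 24 hpf replicates.

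The named windows are the 3 of smallest p in each direction with groups apart and a difference of at least 20 points. They had at least 20 reads in each 24 and 72 hpf library, a rule for the case that too few windows are called. Adult libraries were not held to that minimum and had 15 and 13 reads in the scaffold 2032 window. The regions named were picked after their values were seen, among those with the most called sites. The comparison, the windows and the settings were chosen with earlier results of these data known. No genome of this build was used, so no sequence is shown. Python 3.11.15, numpy 2.4.6, pandas 2.3.3 and scipy 1.17.1 did the remaining work. Alternatives covered window size and offset, read and CpG minimums, dispersion, difference threshold, model and left-out libraries.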

Additional observations from a re-analysis of the deposited data

How the results depend on the processing

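No window was called lower or higher under windows of 100 or 500 bp, shifted windows, minimums of 5 or 20 reads or of 2 or 5 CpG sites, differences of 10 or 30 points, a fit of the 24 and 72 hpf libraries alone, limma on log2 ratios or a linear trend over the stages. The quasi-binomial test called 1 window lower with the spread taken from all 8 libraries and 10 with an offset per library. Over the fits that leave out a library the count was 0 to 6995 lower and 0 to 164 higher. With the replicate number as a block it was 0, and 64 sites were called; the numbers share no stated culture, and the deviations of same-numbered libraries correlated at 0.11 with only 2 pairs.

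The 368 called sites became 222 with an offset per library, of which 2 were higher at 72 hpf, 14 at 15 reads, 0 at 20 reads, 170 with the own dispersion as a floor, 153 under the linear trend and 33 to 10935 with a library left out. The offset, 15-read, own-dispersion and trend settings for sites, and the trend for windows, were chosen after seeing the data. The mean window difference was reversed without 24 hpf replicate 2, ranging from -1.761 to 0.2052 points, and -7.747 points with reads pooled over windows. The median difference in the pair numbered 2 of windows lower by 20 points in the pair numbered 1 was -10.18, and it was -13.36 at 20 reads, -16.96 for windows lower by 30 points and 0.8264 with crossed numbers, where 24 hpf replicate 2 is in the pair that chose them. For windows higher by 20 points it was -5.556, and -7.772, -8.409 and 0.1144 under these settings. Windows chosen in the other pair gave -10.63 and -9.31 with crossed numbers. The correlation of neighbours across pairs was 0.0203 at 20 reads and -0.0245 crossed. The cause of these shifts was not tested. Because no window was called, the position of 48 hpf in called windows gave no value and its alternatives were not run. Of the 368 called sites, 54 had 20 reads in all libraries of the fit and none of these was called at that minimum.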
